A study of Drosophila melanogaster with 6 samples.

Results

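The genes described are 4 Drosophila genes of DNA damage signalling and repair: tefu (Entrez gene 41839), p53 (2768677), mei-9 (31373) and Tdg (43796). They were listed because antifolate drugs damage DNA through uracil and thymine, by a choice that also drew on the measured ovary ratios. All 4 lie on both array designs of the study, among 6795 named genes on the S3 design, 2377 on the ovary design and 7350 on either. The study compared RNA of methotrexate-treated and untreated material on 2-colour spotted cDNA arrays. S3 cells, a cultured Drosophila line, received methotrexate at 0 or 5.2e-08 M for 4 days (4 arrays). For the other 2 arrays, ovaries came from flies given 0 or 5 ppm over 5 days. The labels give no genotype, strain or age of the flies, and do not say that RNA came from separate cultures or animals, so that the spread between arrays may be technical.

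Methotrexate inhibits dihydrofolate reductase and thereby lowers the supply of thymidylate for DNA synthesis. When thymidylate is short, uracil enters DNA in its place, and repeated excision of uracil can break the strand. Glycosylases such as the thymine-DNA glycosylase Tdg remove uracil or thymine from mispairs and open base excision repair. mei-9 encodes the fly homologue of XPF, which with Ercc1 cuts DNA beside bulky lesions in nucleotide excision repair and also acts in meiotic crossing over in the oocyte. tefu encodes the ATM kinase, which responds to double-strand breaks and protects fly telomeres. p53 encodes the transcription factor downstream of these kinases, which in flies switches on cell death genes such as rpr and hid.

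Each deposited value is a log ratio of the 2 channels of one spot, read here as log2. The sources used here state neither the base nor which channel was the numerator, so ratios are given as positive or negative and not as induced or repressed by methotrexate. By the labels the treated RNA carried Cy3 on S3 arrays 1, 3 and 4 and Cy5 on array 2. Only arrays 1, 3 and 4 are therefore known to run the same way, and S3 means are over these 3. The labels list the treated RNA as channel 2 on every S3 array. If the ratio follows channel number, array 2 runs the same way as the others in its deposited sign. In the ovary pair the labels put treated RNA in Cy5 each time, although the series text speaks of a dye swap. The labels list the treated RNA as channel 1 on ovary array 1 and as channel 2 on ovary array 2. If the ratio follows channel number, the 2 ovary arrays run opposite ways. Ovary signs and means are therefore given as deposited, and array 2 was also turned as an alternative. A dye effect of a gene and a treatment effect cannot be told apart in the ovary values. The same holds for S3 means over arrays 1, 3 and 4, where treated RNA always carried Cy3. Fewer cells of a type and less RNA per cell likewise cannot be told apart in ratios of bulk samples.

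Neighbouring duplicate spots of a gene correlated at r = 0.903 and 0.841 on ovary arrays 1 and 2, against 0.292 to 0.454 on the S3 arrays. Between the ovary arrays the correlation across genes was r = 0.753, and between S3 arrays 1, 3 and 4 it was 0.0542 to 0.205; genes are no independent replicates. S3 array 2 in its deposited sign correlated with arrays 1, 3 and 4 at r = -0.188 to 0.198 with array medians. With print blocks centred it did so at 0.0616 to 0.142, and arrays 1, 3 and 4 among themselves at 0.0919 to 0.179. The designs held ratios of tissue markers, not levels, so the labelled tissue could not be checked by them. None of 12 germline markers and none of 16 follicle cell and eggshell markers was among the named ovary genes.

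In the ovary, with signs as deposited, mei-9, tefu and p53 were negative on both arrays and Tdg was positive on both. The ovary values helped choose these genes, so they are described with no test. After each array was centred on its median, tefu was at -0.40 on array 1 and -1.29 on array 2, a mean log2 ratio of -0.84 ± 0.63 (SD, n = 2). Array 2 was the farther from 0, and 0.715% of all genes lay below tefu there, against 40.3% on array 1. mei-9 showed the opposite order, at -1.32 on array 1 and -0.42 on array 2, a mean of -0.87 ± 0.64 (SD, n = 2). Only 1.60% of genes lay below mei-9 on array 1, against 28.1% on array 2.

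p53 was at -0.87 on ovary array 1 and -0.33 on array 2, a mean log2 ratio of -0.60 ± 0.38 (SD, n = 2). Tdg was at 0.34 and 0.40, a mean of 0.37 ± 0.05 (SD, n = 2), the nearest to 0 of the 4 and the one with the closest arrays. By the means, 6.18% of the 2377 ovary genes lay below mei-9, 7.15% below tefu, 21.2% below p53 and 68.8% below Tdg. The order of mei-9, tefu and p53 is not resolved, since their means differ by less than the spread between the arrays of each gene.

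**Figure D1:**
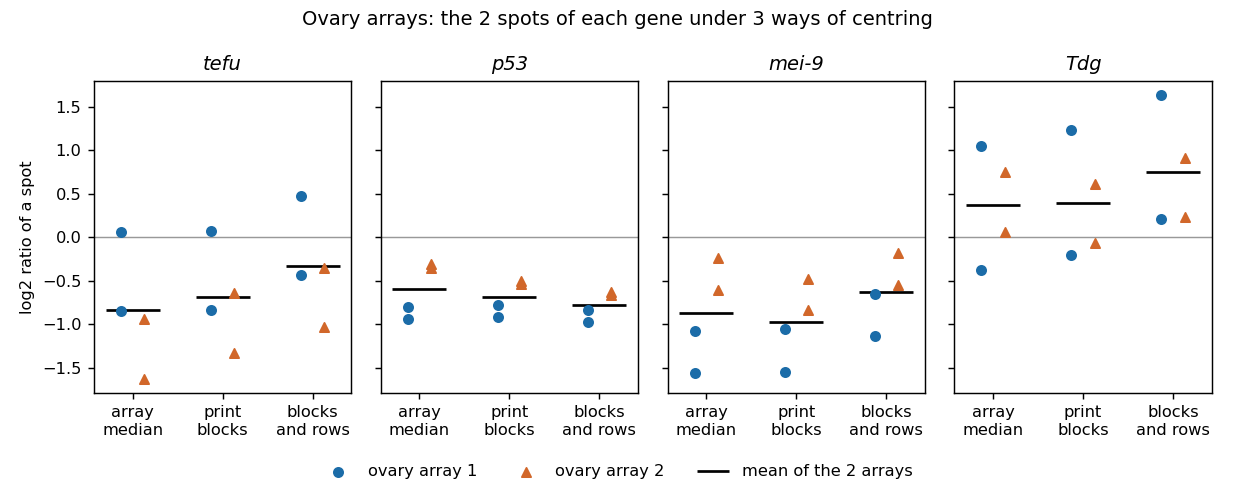
Log2 ratio of each spot (vertical axis) of tefu, p53, mei-9 and Tdg on ovary array 1 (circles) and array 2 (triangles) with arrays centred on their medians, with print blocks centred, and with blocks and rows centred; lines are means of the 2 arrays. The 4 values of p53 lie below 0 under each centring, while the 2 spots of Tdg and of tefu on array 1 lie on opposite sides of 0 with array medians.

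Each gene had 2 neighbouring spots on the ovary design, and their agreement differed from gene to gene. The p53 spots were at -0.94 and -0.80 on array 1 and at -0.35 and -0.31 on array 2. They differed by 0.146 and 0.0428, and 32.9% and 10.0% of the 2833 duplicate pairs on the array agreed more closely. The mei-9 spots were at -1.08 and -1.57 on array 1 and at -0.24 and -0.60 on array 2, so that all 4 were negative, with 82.1% and 70.2% of pairs in closer agreement.

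The duplicates of tefu and Tdg stood far apart. The tefu spots were at -0.85 and 0.06 on array 1 and at -0.95 and -1.63 on array 2, and 97.1% and 92.0% of pairs agreed more closely. The Tdg spots were at 1.05 and -0.38 on array 1 and at 0.06 and 0.75 on array 2, where the higher spot of array 1 was the lower one of array 2. On array 1, 99.7% of pairs agreed more closely than those of Tdg, and on array 2, 92.1%. The small SD between the 2 array means of Tdg thus hides differences of 1.43 and 0.683 between its spots.

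Print position moved with these ratios. The spots of an ovary array lay in 32 print blocks of 22 rows, and with blocks centred the row of a spot accounted for 21.05% of the variance on array 1 and 17.7% on array 2. tefu, mei-9 and Tdg were all printed in row 17, in different blocks, and p53 in row 12. The median of row 17 was -0.41 on array 1 and -0.30 on array 2, while that of row 12 was 0.06 and 0.13. The row medians of the 2 arrays correlated at r = 0.924 over the 22 rows, which share the print layout.

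**Figure D2:**
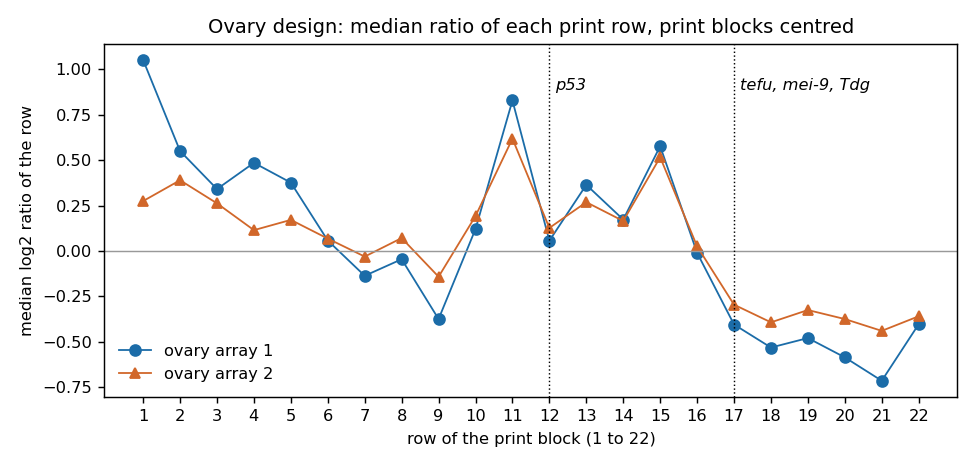
Median log2 ratio of each of the 22 rows of the print block (horizontal axis) on ovary arrays 1 and 2 with print blocks centred; dotted lines mark the rows that hold the 4 genes. Rows 17 to 22 lie below 0 on both arrays, and tefu, mei-9 and Tdg lie in row 17 while p53 lies in row 12.

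Centring on print blocks alone left the order of the 4 genes nearly as before. mei-9 was then at -0.98 ± 0.45, tefu at -0.69 ± 0.43, p53 at -0.69 ± 0.23 and Tdg at 0.39 ± 0.17 (SD, n = 2 each). Centring on blocks and rows moved the genes of row 17 upward and p53 slightly downward. tefu came to 0.02 on array 1 and -0.69 on array 2, a mean of -0.34 ± 0.50 (SD, n = 2), and was no longer negative on both arrays.

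mei-9 was at -0.90 and -0.36 with blocks and rows centred, a mean of -0.63 ± 0.38 (SD, n = 2), still negative on both arrays. p53 came to -0.91 and -0.65, a mean of -0.78 ± 0.18 (SD, n = 2), and was then the lowest of the 4. Tdg came to 0.92 and 0.57, a mean of 0.74 ± 0.25 (SD, n = 2), with all 4 spots above 0 (0.20 and 1.63 on array 1, 0.23 and 0.91 on array 2). By these means 8.08% of genes lay below p53, 12.3% below mei-9, 25.6% below tefu and 87.9% below Tdg. With no centring at all the means were -0.79 for mei-9, -0.76 for tefu, -0.52 for p53 and 0.45 for Tdg.

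limma placed 39.0% of all ovary genes past an adjusted p of 0.05 with array medians, 35.5% without centring, 49.1% with print blocks centred and 32.3% with blocks and rows centred. With array medians the smallest absolute mean past the threshold was 0.645 and the largest not past was 0.644. With blocks and rows centred these were 0.566 and 0.565. A call on the ovary arrays thus followed the size of the mean and hardly the spread between the arrays of a gene. The 4 genes are not counted against these shares, since the ovary ratios helped choose them.

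In row 17 as a whole, 98 genes had all their spots. With array medians 21 of them (21.4%) passed on the negative side and 8 (8.16%) on the positive side, against 18.0% and 20.9% of all genes. With blocks and rows centred 9 (9.18%) passed on the negative side and 25 (25.5%) on the positive side, against 14.5% and 17.8% of all genes. The part of print position in the ratios of tefu, mei-9 and Tdg was not tested.

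In S3 cells none of the 4 genes passed an adjusted p of 0.05. p53, with 1 pair of spots, was at -0.51, -0.23 and -0.75 on arrays 1, 3 and 4 with array medians, a mean log2 ratio of -0.50 ± 0.26 (SD, n = 3). It was negative on 3 of 3 arrays, and limma gave an adjusted p of 0.628 over 6772 genes, with a 95% interval of -1.05 to 0.05. On array 2, of the other dye orientation, p53 was at 0.37 as deposited. mei-9 was at -0.96, 0.16 and -0.36, which averaged -0.39 ± 0.56 (SD, n = 3) and was negative on 2 of 3 arrays. Its interval ran from -1.01 to 0.23 (limma adjusted p = 0.733).

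tefu lay near 0 in S3 cells, at 0.10 on arrays 1 and 3 and 0.24 on array 4, a mean of 0.15 ± 0.08 (SD, n = 3). All 3 arrays were positive, and the interval ran from -0.39 to 0.68 (limma adjusted p = 0.901). On array 2 tefu was at 0.28 as deposited. Tdg was at 0.27, 0.24 and 0.09, which averaged 0.20 ± 0.10 (SD, n = 3), with all 3 arrays positive. Its interval ran from -0.34 to 0.73 (limma adjusted p = 0.853). On array 2 Tdg was at -0.56 and mei-9 at -0.25 as deposited. limma called 1 of the 6772 S3 genes (0.0148%), CG15347 at -2.60 ± 0.44 (SD, n = 3, limma adjusted p = 0.0101), a gene named because it was the only one. CG15347 was at -1.04 on array 2 as deposited. An unadjusted p under 0.05 was reached by 548 genes (8.09%) and by 0 of the 4.

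**Figure D3:**
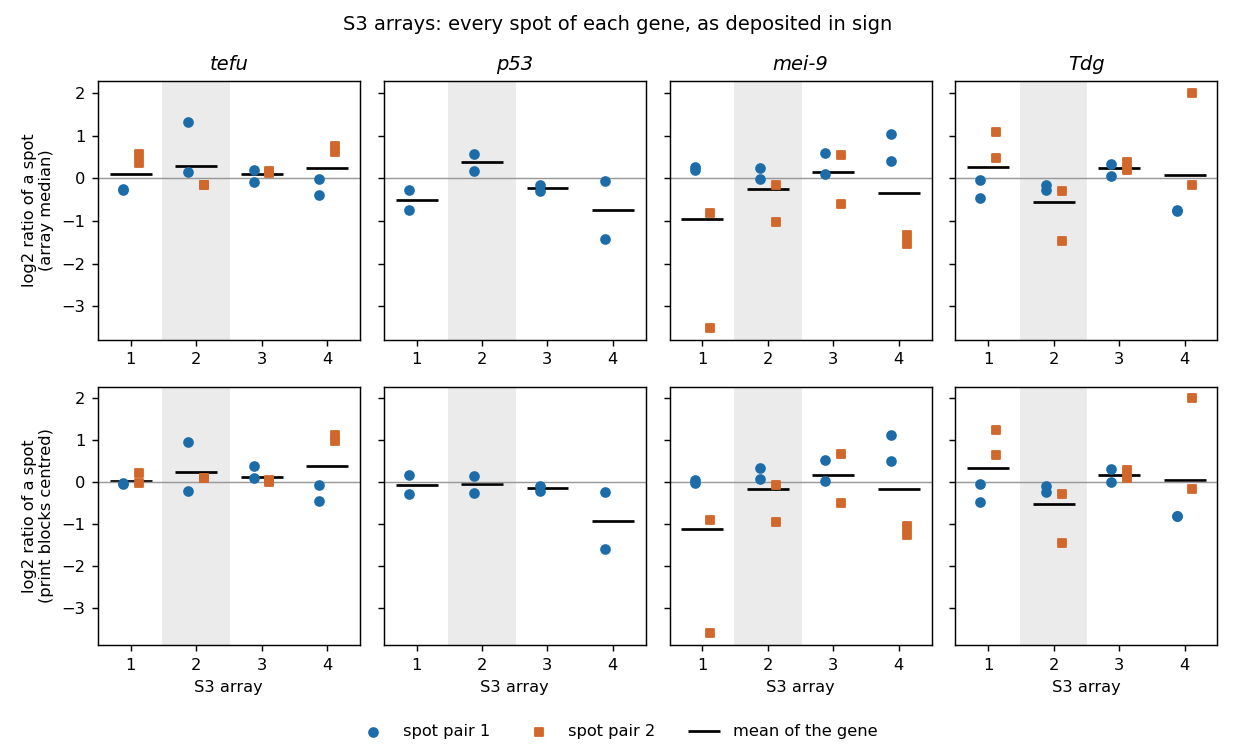
Log2 ratio of every spot (vertical axis) of tefu, p53, mei-9 and Tdg on S3 arrays 1 to 4 (horizontal axis), with array medians above and print blocks centred below; circles and squares are the neighbouring pairs of spots, lines the mean of the gene, and the shaded array 2 has the other dye orientation and is shown in its deposited sign. The pairs of mei-9 lie apart on arrays 1 and 4, and p53 has 1 pair only.

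tefu, mei-9 and Tdg were each printed as 2 pairs of spots in different blocks of the S3 design. With array medians the pairs of all 3 genes had means of opposite sign over arrays 1, 3 and 4. The pairs of mei-9 averaged 0.43 and -1.21, a gap of 1.64 that 99.3% of the 677 genes with more than 1 pair stayed below. On array 1 the spots of the lower pair of mei-9 were at -0.81 and -3.50, and on array 4 at -1.54 and -1.33, while the upper pair was at 1.03 and 0.41 there. The pairs of Tdg averaged -0.27 and 0.66, and 93.5% of such genes had a smaller gap. Its highest spot, 2.00 on array 4, stood beside a duplicate at -0.15. The pairs of tefu averaged -0.14 and 0.43, and 75.9% of such genes had a smaller gap. With print blocks centred the pairs of tefu averaged -0.03 and 0.38, and with blocks and rows centred 0.002 and 0.34, both positive. With array medians, pairs of opposite sign were seen in 324 of the 677 genes (47.9%). A mean over pairs that disagree in sign is a poor description of any one of them.

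Print blocks of the S3 design also differed, with block medians from -0.50 to 0.41 on array 1. The block of p53 had a median of -0.44 on array 1, 0.43 on array 2, -0.06 on array 3 and 0.18 on array 4. With blocks centred p53 came to -0.07, -0.16 and -0.93 on arrays 1, 3 and 4, which averaged -0.39 ± 0.47 (SD, n = 3) with a limma adjusted p of 0.651, and to -0.07 on array 2. Array 4 then set most of the mean, and of its 2 spots one was at -1.61 and the other at -0.26. The other 3 genes moved little: mei-9 was at -0.38 ± 0.67, tefu at 0.17 ± 0.19 and Tdg at 0.18 ± 0.15 (SD, n = 3 each). Their limma adjusted p were 0.698, 0.812 and 0.810. limma again called 0.0148% of genes with blocks centred.

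For tefu and for mei-9 the annotation, taken over all spots of the gene, lists a sequence record that both designs share. Whether every pair of spots carries that record was not examined. For Tdg no record is shared, and for p53 the S3 annotation lists none. The designs thus need not read the same stretch of Tdg or p53. Since the direction of the deposited ratios is not known to be the same on both designs, no test was made between S3 and ovary. tefu was positive on S3 arrays 1, 3 and 4 and negative on both ovary arrays, and p53 was negative on all 5.

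Other DNA damage and repair genes were taken from lists of 87 further genes grouped by role. Of these 52 were measured in S3 cells, where 0 passed on either side, 29 were negative and 23 positive, and the median was -0.08 against -0.02 over all genes. The lowest was Ets21C, a stress-responsive transcription factor gene listed with p53 and the cell death genes, at -0.80, -2.04 and -1.57 on arrays 1, 3 and 4 (mean -1.47 ± 0.63, SD, n = 3; limma adjusted p = 0.193). It was at -0.88 on array 2 as deposited. All 4 measured genes of that group were negative, at a median of -0.57, where 52.7% of all genes were negative. With print blocks centred, or blocks and rows, 3 of the 4 were negative and Corp was at 0.04 and 0.01. Among them Dark, which encodes the apoptosome scaffold, was at -0.75 ± 0.47 (SD, n = 3; limma adjusted p = 0.576).

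Break sensing was led in S3 cells by mre11, the nuclease of the complex that recruits ATM, at -1.13, -1.10 and -0.51 (mean -0.91 ± 0.35, SD, n = 3; limma adjusted p = 0.450). The checkpoint clamp gene Rad9 was at -0.57 ± 0.52 (SD, n = 3; limma adjusted p = 0.616). Both were of the other sign on array 2 as deposited, at 0.10 and 0.67. Of 7 base excision genes 5 were positive (4 with either print centring), led by the flap nuclease gene Fen1 at 0.78 ± 0.83, and the glycosylase gene Nthl1 was at -0.47 ± 0.16 (SD, n = 3 each). Their limma adjusted p were 0.581 and 0.629. In nucleotide excision repair the damage sensor gene Xpc was at 0.51 ± 0.34 and the kinase gene Cdk7 of TFIIH at 0.73 ± 0.86 (SD, n = 3 each; limma adjusted p = 0.628 and 0.604). In the remaining groups the mismatch repair genes Msh6 and Pms2 were at -0.39 and -0.42, the recombination genes mms4 and SMC6 at -0.76 and 0.36, the end joining genes DNAlig4 and PolQ at -0.08 and 0.09, and the crosslink repair genes Fancm and Snm1 at -0.51 and -0.58, with limma adjusted p of 0.561 or more.

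On the ovary arrays 19 of the 87 further genes were measured. With array medians 17 of them were negative, where 55.1% of all genes were, at a median of -0.43 against -0.14 over all genes. limma placed 5 past on the negative side and 1 past on the positive side, against 18.0% and 20.9% of all genes. With print blocks centred 9 passed on the negative side and 2 on the positive side, against 24.5% and 24.6% of all genes. The lowest was PolH, the translesion DNA polymerase eta, at -1.94 on array 1 and -0.56 on array 2. Its mean was -1.25 ± 0.97 (SD, n = 2), and it passed under all 3 centrings, at -1.42 with print blocks and -1.51 with blocks and rows centred. Passing here reflects the size of a mean and hardly the spread between the 2 arrays. Ubc6, the ubiquitin-conjugating enzyme homologous to yeast Rad6, was at -0.84 ± 0.04 (SD, n = 2; limma adjusted p = 0.0106) and at -0.99 with blocks and rows centred, where it also passed. The others past on the negative side were the glycosylase gene Nthl1 at -0.85 ± 0.06, SMC6 at -0.85 ± 0.12 and Cdk7 at -0.75 ± 0.09 (SD, n = 2 each). With blocks and rows centred these came to -0.53, -0.11 and -0.28, with limma adjusted p of 0.0704, 0.771 and 0.395. SMC6 and Cdk7 were printed in row 21 and Nthl1 in row 22. Of all genes with their spots in rows 21 and 22, 47.2% and 40.0% passed on the negative side with array medians.

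The 1 gene past on the positive side was Tfb1, a core subunit of the repair and transcription factor TFIIH, at 2.01 and 1.62 (mean 1.82 ± 0.28, SD, n = 2). It was at 1.70 with blocks and rows centred, in the same print row 12 as p53 and PolH. Its partner in TFIIH, Cdk7, thus lay on the other side with array medians. mrn and Ssl1, named here as further TFIIH genes and not by p, were at 0.55 and -0.23, and neither passed. With print blocks centred mrn was at 0.74 and passed (limma adjusted p = 0.00905). rad50 and Hus1-like of break and checkpoint sensing were at -0.43 and -0.60, the abasic-site nuclease gene Rrp1 at -0.57, Msh6 at -0.30, mus81 at -0.24, DNAlig4 at -0.61 and PolQ at -0.41, none of them past with array medians (limma adjusted p from 0.0644 to 0.474). With print blocks centred 4 of these 7 passed, DNAlig4 at -1.03, PolQ at -0.83, Msh6 at -0.72 and Hus1-like at -0.57 (limma adjusted p from 0.000492 to 0.0492), and with blocks and rows centred none of these 4 did. mus81, a nuclease of recombination intermediates, passed only under the last of the 3 centrings, with blocks and rows, at -0.70 (limma adjusted p = 0.0121). With blocks and rows centred 15 of the 19 were negative, where 51.8% of all genes were, at a median of -0.20 against -0.02. Of the 19, 3 passed on the negative side and 1 on the positive side, against 14.5% and 17.8% of all genes.

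**Figure D4:**
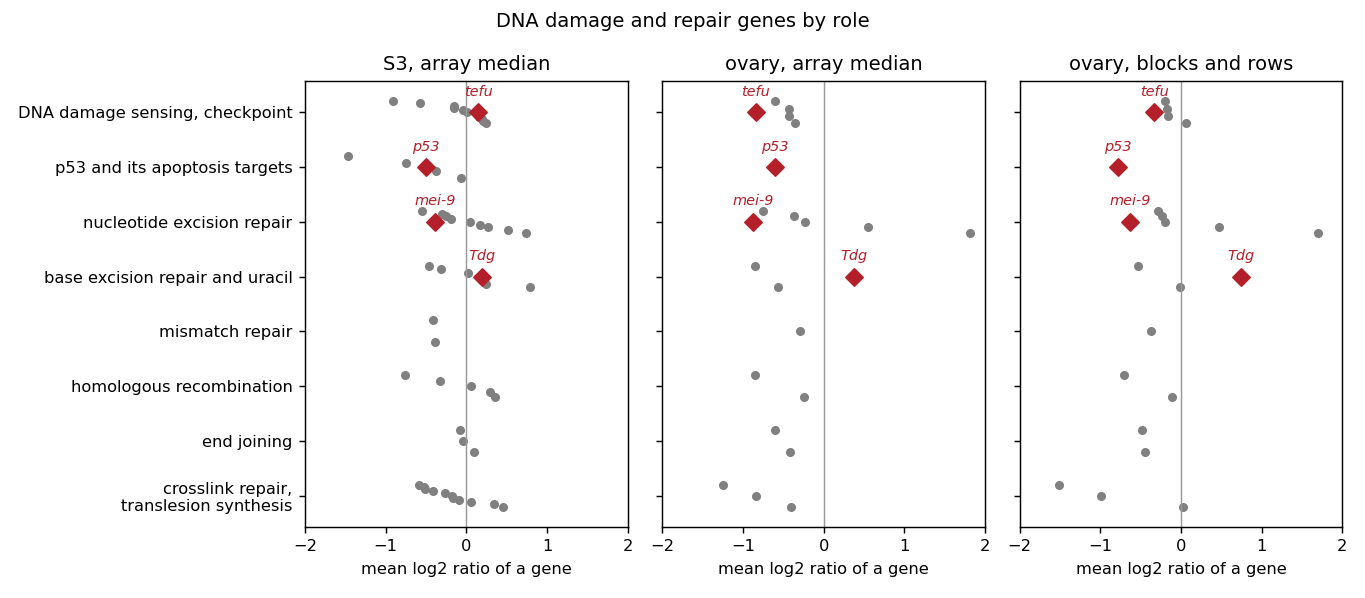
Mean log2 ratio (horizontal axis) of each measured gene of 8 groups of DNA damage and repair genes (grey points) and of tefu, p53, mei-9 and Tdg (diamonds), in S3 cells and in ovary with array medians, and in ovary with blocks and rows centred. In S3 cells the points lie on both sides of 0. In ovary 17 of the 19 grey points are negative with array medians and 15 with blocks and rows centred, against 55.1% and 51.8% of all genes.

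These genes were not spread evenly over the ovary design. Of 21 damage and repair genes with all spots in 1 row, tefu, p53, mei-9 and Tdg included, 9 lay in row 17, which held 98 of 2128 such genes in all (4.61%). Apart from tefu, mei-9 and Tdg these were rad50, Rad1, Rad17, Rrp1, Msh6 and PolQ, chosen here for their place and not for their values. With array medians all 6 were negative, from -0.57 to -0.30, and with blocks and rows centred 5 of 6 were, from -0.48 to 0.07. Without tefu, p53, mei-9 and Tdg, 17 damage and repair genes had all spots in 1 row. Of the 17, 11 lay in rows with a negative median on both arrays, against 39.7% of all such genes. The part of print rows in the ratios of these genes was not tested.

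By the root mean square difference of log2 ratios over all 6 arrays (array medians, array 2 of S3 in its deposited sign), the genes most like tefu were Taf3 (0.153) and Alk (0.209), against a median of 0.737 over 1814 genes. Those most like p53 were Jhbp5 (0.166) and MCU (0.187), those most like mei-9 were Obp59a (0.183) and Irk3 (0.255), and those most like Tdg were CG3356 (0.131) and CG17712 (0.172). With print blocks centred only Taf3 and CG3356 were again among the nearest 2, and with blocks and rows centred none of these genes was. The likeness thus depended on the centring. With array medians the nearest among the 4 genes were p53 and mei-9, at 0.427, where p53 ranked as gene 73 of 1814 by likeness to mei-9. With print blocks centred they differed by 0.580 and p53 ranked as gene 263, and with blocks and rows centred by 0.572 and as gene 308. Tdg was the least like mei-9, at 0.936.

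Marker lists of other cell types had these ratios. In S3 cells 7 of 11 hemocyte markers were measured and all 7 were negative, from -0.97 to -0.06 (median -0.32), with 0 past. With array medians all 4 measured muscle markers were negative (median -0.29), and 3 of them were with either print centring. Of 8 germline markers 5 were negative (median -0.12), and of 5 fat body markers 3. On the ovary arrays 4 of 11 hemocyte markers were measured, with 2 past on the positive side, where 20.9% of all genes passed, and the other 2 negative (median 0.33). With either print centring 1 of them also passed on the negative side. All 3 measured muscle markers (median -0.54, 1 past on the negative side, where 18.0% of all genes passed) and both fat body markers (median -0.23) were negative there with array medians. With blocks and rows centred 2 of the 3 and 1 of the 2 were negative, at medians of -0.19 and -0.13. The part of these cell types in the ratios of the 4 genes was not tested.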

How the data were processed

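The authors deposited 1 log ratio per spot and array, read here as log2; base, numerator, background correction and normalization are not given in the sources used here. S3 array medians as deposited were -0.02 to 0.18 and ovary medians 0.06 and 0.11, so the scale, centring and direction applied by the authors are unknown. Spots (27648 and 16896) took gene names from the annotation of each platform, and Entrez numbers gave the current symbols of RefSeq Release 6. Spots with 1 gene numbered 15116 and 5666, with several genes 102 and 152, and with none 12430 and 11078. Arrays were centred on their median, or on print blocks (48 of 576 spots and 32 of 528, in rows of 24, a layout read from the values), or on blocks and then rows. Spots of a gene were averaged per array.

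Means were tested against 0, two-sided, with limma 3.58.1 in R 4.3.3 (lmFit, eBayes), Benjamini-Hochberg adjusted over all genes with a value on every array used. The fit was also run on simulated independent values of equal spread, without print or dye effects. That run does not show how the fit behaves on arrays with such effects. Python 3.11.15, pandas 2.3.3 and matplotlib 3.10.9 were also used. Members, lists, layout and tests were chosen with earlier results of these data known. Of 103 list symbols for pathways 91 distinct genes were matched, and of 61 marker symbols 59. Named are the 4 genes, the 2 genes most like each, and per list and design the 2 others with the smallest p. The values hold no spot brightness, and the number of arrays limits the precision. No sequence was used.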

Additional observations from a re-analysis of the deposited data

Results flagged for a closer look

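With print blocks centred, p53 on S3 array 4 stood apart from the other S3 arrays, at -0.931, with arrays 1 to 3 between -0.16 and -0.06. The gap was 0.888 of the whole range, past Dixon's critical value for 4 values, with array 2 in its deposited sign. Chance sets about 1 in 20 such groups apart, and 8 were examined.

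tefu was positive on S3 arrays 1, 3 and 4 and negative on both ovary arrays. The means differed by 0.988 with array medians and by 0.859 with print blocks centred. The difference was not tested, and the designs are not known to share the direction of their ratios.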

How the results depend on the processing

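The 4 genes stayed short of the threshold in S3 cells, with the same sign, under all 12 alternatives run. The mean of tefu ranged from 0.04 to 0.25, p53 from -0.63 to -0.28, mei-9 from -0.66 to -0.10 and Tdg from 0.00 to 0.30, and the lowest limma adjusted p was 0.620. Tdg was at 0.01 with array 2 added as deposited and 0.29 with it turned. The count of S3 genes called by limma, 1 with arrays 1, 3 and 4, was 3 with array 2 added as deposited (CG15347, fat-spondin and CG16959, named after their values were seen). It was 0 with array 2 turned, with blocks centred and array 2 of either sign, with equal scale, and with spots tested one by one. At an unadjusted p under 0.05 these gave 505, 644, 331, 555 and 1714. Leaving out array 1, 3 or 4 gave 6, 17 and 0 genes, the last with 649 at an unadjusted p under 0.05.

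The ovary count of 926 fell to 0 with array 2 turned, also at an unadjusted p under 0.05. It was 330 of 1816 genes when S3 and ovary arrays were fitted jointly, and 5040 of 16896 with spots tested one by one. In the joint fit it was 0 without replicate 1 and 0 without replicate 2, with 230 and 397 at an unadjusted p under 0.05; the lone array was assumed to vary like the S3 arrays. Without centring, 559 genes were positive and 284 negative, against 497 and 429 with array medians. With array 2 turned the ovary means were 0.44 for tefu, -0.27 for p53, -0.45 for mei-9 and -0.03 for Tdg. No paired analysis was possible because each array already sets treated against untreated RNA, and no test compares S3 with ovary.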
